A study of Mus musculus with 16 samples.

Results

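The 42 genes described here encode the working parts of the lysosome: 16 genes of the proton pump (V-ATPase), 7 proteins of the lysosomal membrane, 13 hydrolases, 3 lumenal proteins that are not enzymes themselves, and the 3 transcription factors Tfeb, Tfe3 and Mitf. They were taken by symbol from a list that uses no measured value as a criterion, although the list was drawn up with earlier results of these data known. All 42 were found among the 54532 genes of the count table, and all 42 were among the 15257 genes with enough counts to be tested, with 428 counts (Smpd1) as the lowest value of any of them in any library. RNA was sequenced from cells recovered by bronchoalveolar lavage, which washes free cells out of the airspaces of the lung. There were 4 libraries each from bleomycin males, bleomycin females, saline males and saline females. Bleomycin, a DNA-damaging drug used to model lung injury and fibrosis, was given into the oropharynx at 4 U per kg, and cells were taken on day 14. All groups were mice of 8 to 10 weeks, of strain C56BL/6J as the sample labels spell it and C57BL/6 in the study's design text, and no transgene or mutation is labelled. The labels do not say that each library came from a separate animal, so p-values measure the spread between these libraries, which may be in part technical.

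The lysosome degrades proteins, lipids and glycans that reach it by endocytosis, phagocytosis or autophagy. Its hydrolases work at low pH, which the V-ATPase maintains by coupling ATP hydrolysis in the cytosolic V1 sector to proton transport through the membrane-embedded V0 sector. Tfeb, Tfe3 and Mitf are related basic helix-loop-helix factors that bind E-boxes, including the CLEAR element found at many lysosomal genes, and their entry into the nucleus is set by phosphorylation, which RNA does not report. Alveolar macrophages, the main free cells of a healthy airspace, clear surfactant lipid, dying cells and particles through their lysosomes.

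With bleomycin, the RNA of most lysosome genes was higher in both sexes. In bleomycin males against saline males, 33 of the 42 genes rose and 3 fell, where 31.5% of all genes tested rose and 24.9% fell. In bleomycin females against saline females, 32 rose and 4 fell, where 26.7% of all genes rose and 17.2% fell. Averaged over the sexes, 34 rose and 4 fell, against 34.7% and 28.8% of all genes. Calls rest on edgeR's quasi-likelihood test with a Benjamini-Hochberg adjusted p below 0.05 over all 15257 genes. Of the 42 genes, 31 were called up and 3 down in both sexes. Among all genes these shares can be at most the 26.7% and 17.2% called in females.

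The rises were broad and mostly small. The median log2 change over the 42 genes was 0.64 in males and 0.53 in females, where the median of all genes was 0.02 and 0.018. In the averaged comparison only Lgmn, Psap, Gla and Npc2 rose by at least 2-fold, which is 9.52% of the 42 genes, while 15.5% of all genes did. All 13 hydrolases and all 3 non-enzyme lumenal proteins rose, with median log2 changes of 0.72 and 1.10, although with library totals alone Neu1 was not called. Of the 16 pump genes 13 rose and none fell, with a median of 0.49, although with library totals alone Atp6v0b was called down. The membrane proteins were divided, with 4 up, 2 down and 1 not called, as were the regulators, with Tfe3 up and Tfeb and Mitf down. Of all genes tested, 34.7% rose and 28.8% fell. The averaged comparison uses the same libraries as the comparisons by sex and is not independent of them.

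Scaling bears on the small changes. With library totals alone, without the composition factors, the median averaged log2 change of all genes was -0.20 in place of 0.012, and the rises made up 34.7% of all calls in place of 54.6% (35.8% in place of 55.8% in males, 39.3% in place of 60.8% in females). On that scale 29 of the 42 genes rose and 6 fell, where 3720 of all 15257 genes tested rose and 7004 fell. The added falls were Atp6v0b, at -0.18 (edgeR adjusted p = 0.0271), and Scarb2, at -0.20 (edgeR adjusted p = 0.00211). The rises that were not called on that scale were Atp6v0d1, at 0.12 (edgeR adjusted p = 0.132), Atp6v1b2, at 0.054 (edgeR adjusted p = 0.317), Atp6v1f, at 0.077 (edgeR adjusted p = 0.446), Npc1, at 0.029 (edgeR adjusted p = 0.621), and Neu1, at 0.10 (edgeR adjusted p = 0.0939). Measured from the median of all genes, the median of the 42 was 0.572 with the composition factors and 0.567 without them. The factors shift all genes nearly alike, and subtracting their median removes that shift, so this near-equality does not test the scaling.

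**Figure D1:**
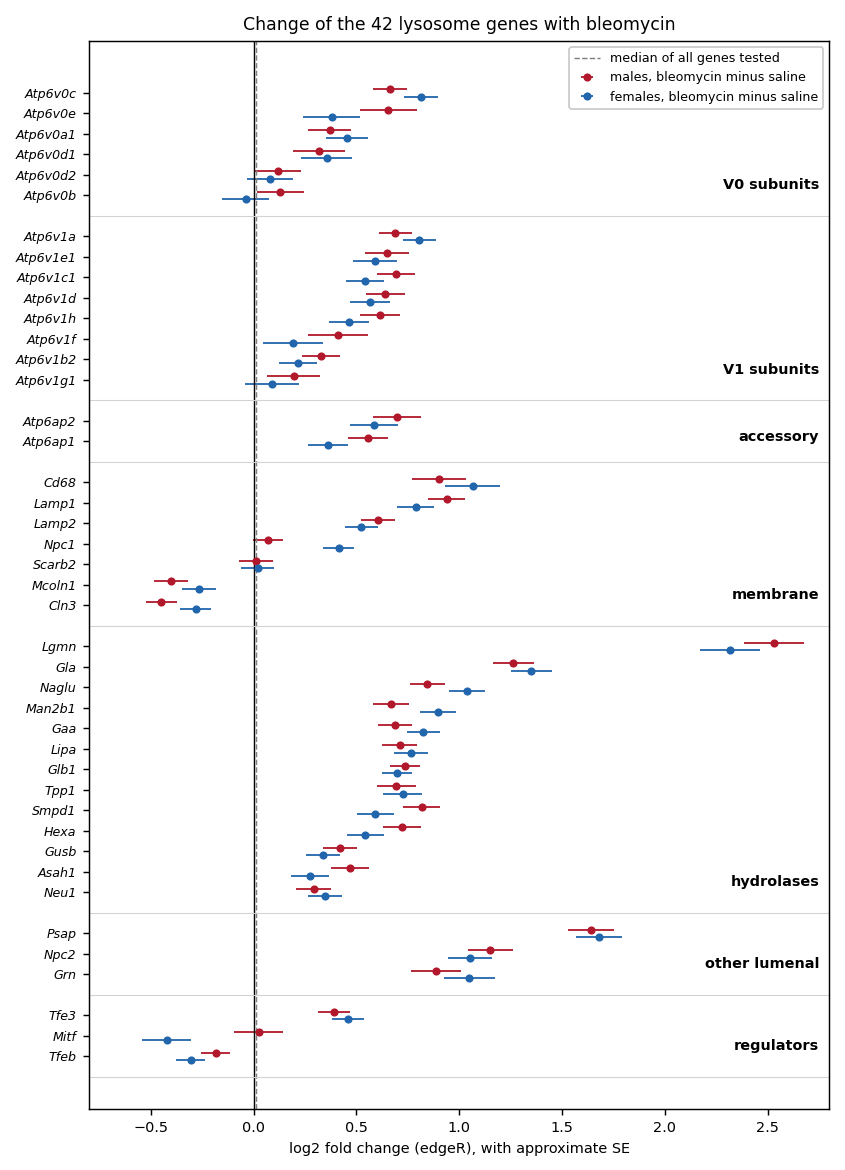
Log2 fold change of each of the 42 genes, bleomycin minus saline, in males (red) and females (blue), on the horizontal axis, with genes grouped by class down the page; bars are approximate standard errors and the dashed line is the median of all genes tested. Every hydrolase lies right of 0 in both sexes, Lgmn lies farthest right at 2.53 in males and 2.32 in females, and Mcoln1, Cln3 and Tfeb lie left of 0 in both.

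The cell mixture differed between the groups as well. Markers of monocyte-derived macrophages summed to 5998 to 11100 CPM (the usual depth-scaled count, here scaled to each library's total and composition) in bleomycin males and 4460 to 8089 CPM in bleomycin females, against 161.8 to 202.5 CPM in saline males and 134.7 to 166.9 CPM in saline females. All 12 of these markers rose, and of the defining ones Ly6c2 was at 0 in saline females. All 12 T cell markers rose too, with sums of 219.7 to 597.1 CPM and 184.2 to 481.7 CPM in bleomycin males and females, and at most 4.003 CPM in any saline library. Among 14 genes that mark resident alveolar macrophages 10 fell and 2 rose, with sums of 12970 to 20920 CPM in bleomycin males and 12580 to 25630 CPM in bleomycin females, against 18350 to 20270 CPM in saline males and 24120 to 27270 CPM in saline females, and 3 of 4 bleomycin libraries of each sex lay below every saline library of that sex. All tested markers of B cells (6), NK cells (7) and dendritic cells (9) rose, and the dendritic cell sums were 320 to 721.3 CPM over the bleomycin libraries, against 25.31 to 58.79 CPM over the saline libraries. Neutrophil sums were 191.1 to 236 CPM in the bleomycin libraries and 81.55 to 124.5 CPM in the saline libraries, with 6 of 7 tested markers up and 1 down. Epithelial sums were 271.3 to 507 CPM in the bleomycin libraries and 745.1 to 885.4 CPM in the saline libraries, although 8 of the 11 markers rose and 2 fell. The part of these shifts in the lysosome values was not tested. In RNA from whole lavage, a change in the number of cells of a type and a change in RNA per cell cannot be told apart. Total counts were 18871879 to 24567609 per bleomycin library and 16385784 to 21393539 per saline library.

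Together the 42 genes took 3.24 to 3.55% of all counts in bleomycin males and 3.0 to 3.48% in bleomycin females, against 1.96 to 2.08% in saline males and 1.88 to 1.95% in saline females. Psap alone made up 1.33 to 1.6% and 1.27 to 1.49% in bleomycin males and females, against 0.536 to 0.617% and 0.485 to 0.517% in saline males and females. Without Psap the other genes held 1.73 to 2.01% across the bleomycin libraries of both sexes, against 1.40 to 1.47% across the saline libraries. The larger part of the added counts was therefore Psap, although every bleomycin library also stood above every saline library without it. The pump genes moved little on this scale, at 0.507 to 0.552% in bleomycin males against 0.462 to 0.471% in saline males, and at 0.456 to 0.583% in bleomycin females against 0.476 to 0.489% in saline females.

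The regulators stood near the bottom of the set. In the deposited gene table Tfeb lies at chr17:47737030-47792419, Tfe3 at chrX:7762560-7775202 and Mitf at chr6:97807052-98021349, all on the plus strand, and 40 of the 42 genes have the coordinates of GENCODE M21 (GRCm38). Per gene length, Tfeb, Tfe3 and Mitf ranked between 36th and 42nd of the 42 genes in all 4 groups, with 12.2 ± 0.265 FPKM (counts per length and library constant, as the authors deposited them) for Tfeb in bleomycin males and 13.96 ± 1.10 FPKM in saline males (SD, n = 4). Tfe3 had 94.9, 108, 103 and 96.1 CPM in bleomycin males and 91.6, 89.1, 96.9 and 102 CPM in bleomycin females, against 80.5, 78.97, 73.6 and 73.5 CPM in saline males and 77.8, 69.98, 61.02 and 67.4 CPM in saline females. Every bleomycin library was above every saline library, and Tfe3 rose by 0.39 ± 0.077 on the log2 scale in males (edgeR adjusted p = 3.48e-04; ± is the approximate SE) and by 0.46 ± 0.078 in females (edgeR adjusted p = 8.23e-05).

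Tfeb had 70, 68.1, 71.5 and 69.5 CPM in bleomycin males and 72.9, 73, 75.6 and 73.02 CPM in bleomycin females, against 80.7, 84.4, 70.3 and 81.8 CPM in saline males and 80.4, 95.1, 97.2 and 91.3 CPM in saline females. The groups did not overlap in females, and in males the lowest saline library lay within the bleomycin range. Tfeb fell in both, with a log2 change of -0.18 ± 0.071 in males (edgeR adjusted p = 0.0345) and -0.31 ± 0.071 in females (edgeR adjusted p = 0.00172). Mitf had 69.8, 59.2, 60.4 and 51.8 CPM in bleomycin males and 57.4, 57.3, 70.2 and 54.4 CPM in bleomycin females, against 70.7, 58.8, 46.8 and 60.8 CPM in saline males and 71.3, 90.4, 79.9 and 79.3 CPM in saline females. Both male groups and the bleomycin females shared one range, and the saline females stood above it, their lowest library by less than 1 CPM. Mitf fell in females, with a log2 change of -0.42 ± 0.12 (edgeR adjusted p = 0.00719), and was not called in males at 0.025 ± 0.12 (edgeR adjusted p = 0.873). Its averaged change of -0.20 (edgeR adjusted p = 0.0469) passed narrowly and lost the call in 12 of the 16 fits that left out 1 library, with adjusted p up to 0.118.

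The E-box and the longer CLEAR core were looked for in the promoters of the set, because these are the letters that the 3 regulators are known to bind. RefSeq promoter windows (GRCm38.p6, 250 bases before to 50 after the start) were at hand for 35 of the 42 genes, and the motifs CACGTG and TCACGTGA, which read the same on both strands and of which the longer contains the shorter, were counted in them. CACGTG was present in 12 of 35 genes (34.3%), against 2187 of 27025 genes with a promoter (8.09%), and TCACGTGA in 6 of 35 (17.1%), against 304 of 27025 (1.12%). The 6 were Atp6v0d1, Atp6v0e, Atp6v1a, Gla, Cln3 and Mcoln1, of which 4 rose and 2 fell in the averaged comparison. Lamp1 held CACGTG 4 times, and no window of Tfeb, Tfe3 or Mitf held either motif. The 4 promoters given here belong to the V0 and membrane genes with the longer motif, the first pair of genes risen and the second pair fallen, each given on the strand of its gene with both motifs in capitals.
Atp6v0d1, chr8:105566015-105566314, minus strand: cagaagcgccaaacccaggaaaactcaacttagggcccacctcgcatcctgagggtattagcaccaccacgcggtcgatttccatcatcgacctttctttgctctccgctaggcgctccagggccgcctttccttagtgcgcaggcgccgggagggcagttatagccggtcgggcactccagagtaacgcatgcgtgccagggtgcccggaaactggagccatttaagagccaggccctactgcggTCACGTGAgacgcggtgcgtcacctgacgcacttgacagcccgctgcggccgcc
Atp6v0e, chr17:26676146-26676445, plus strand: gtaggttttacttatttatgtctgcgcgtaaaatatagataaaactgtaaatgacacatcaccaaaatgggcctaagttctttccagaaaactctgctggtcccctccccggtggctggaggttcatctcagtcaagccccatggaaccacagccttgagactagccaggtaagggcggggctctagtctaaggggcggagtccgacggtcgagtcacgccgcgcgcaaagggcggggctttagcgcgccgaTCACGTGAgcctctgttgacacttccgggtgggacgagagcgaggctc
Cln3, chr7:126583187-126583486, minus strand: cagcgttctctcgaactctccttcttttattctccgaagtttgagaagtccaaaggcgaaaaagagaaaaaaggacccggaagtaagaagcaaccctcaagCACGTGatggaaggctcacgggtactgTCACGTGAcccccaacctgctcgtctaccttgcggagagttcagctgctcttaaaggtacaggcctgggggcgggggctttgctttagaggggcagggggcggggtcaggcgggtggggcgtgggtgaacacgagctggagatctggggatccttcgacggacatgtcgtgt
Mcoln1, chr8:3500269-3500568, plus strand: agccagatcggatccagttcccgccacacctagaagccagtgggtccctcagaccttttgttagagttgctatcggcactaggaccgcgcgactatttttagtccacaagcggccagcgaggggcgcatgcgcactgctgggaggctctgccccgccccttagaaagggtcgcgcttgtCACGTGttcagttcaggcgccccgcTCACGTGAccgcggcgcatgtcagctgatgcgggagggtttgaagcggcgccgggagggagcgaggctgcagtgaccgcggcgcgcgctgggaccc
The longer motif began 4 bases before the start in Atp6v0d1, at the third base after it in Atp6v0e, 122 bases before it in Cln3 and 46 bases before it in Mcoln1. Cln3 and Mcoln1 also held a separate CACGTG, 149 and 71 bases before the start. Cln3 has another start, whose window at chr7:126585768-126586067 held neither motif. That window spans the start of Cln3 in the deposited gene table, at 126585817, while the window given here lies inside the gene. Mcoln1 starts at 3500457 in the deposited gene table, so its longer motif lies inside the gene as listed there. A match is a description of the letters and not a binding site or a cause. The CLEAR element is known from lysosomal genes, so its higher share in this set is not a finding of these data. The share of all genes covers every gene with a promoter window, whether or not it was tested here. Of the 12 genes with CACGTG, 9 rose, 2 fell and 1 was not called, and of the 23 without it, 20 rose, 2 fell and 1 was not called. In the averaged comparison 34.7% of all genes tested rose and 28.8% fell.

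In the V0 sector 4 of 6 genes rose in each sex, beside 31.5% of all genes in males and 26.7% in females. Atp6v0c, the proteolipid that forms the rotating ring, had 156, 199, 191 and 189.7 CPM in bleomycin males and 175, 198, 203 and 223 CPM in bleomycin females, against 115, 119, 113 and 118 CPM in saline males and 116, 115, 111 and 112 CPM in saline females. Every bleomycin library was above every saline library, and the log2 changes were 0.66 ± 0.081 in males (edgeR adjusted p = 1.95e-06) and 0.81 ± 0.082 in females (edgeR adjusted p = 1.71e-07). Its 2 pseudogene copies are listed apart in the count table, so reads shared with them make its level uncertain. Atp6v0b, another proteolipid of the ring, had 241, 295, 279 and 258 CPM in bleomycin males and 204, 268, 303 and 317 CPM in bleomycin females, against 242, 223, 257 and 259 CPM in saline males and 247, 279, 289 and 308 CPM in saline females. All 4 groups overlapped, and no change was called, at 0.13 ± 0.11 in males and -0.039 ± 0.11 in females on the log2 scale. Atp6v0a1, a membrane-spanning a subunit, and Atp6v0e, a small membrane subunit, rose by 0.41 and 0.52 on the log2 scale in the averaged comparison.

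The d subunit links the ring to the central stalk and comes in a widely expressed form, d1, and a form known from osteoclasts and macrophages, d2. Atp6v0d1 had 278, 338, 299.7 and 273 CPM in bleomycin males and 224, 250.2, 355 and 354 CPM in bleomycin females, against 235, 257, 229.5 and 232 CPM in saline males and 251, 231, 220.3 and 222 CPM in saline females. It rose by 0.32 ± 0.12 in males (edgeR adjusted p = 0.0373) and 0.36 ± 0.12 in females (edgeR adjusted p = 0.0271), on the log2 scale, without overlap in males and with overlap in females, where C49 and C50 (libraries go by their codes in the labels) lay within the saline range, and its averaged change was not called with library totals alone. Atp6v0d2 had 1101, 1082, 1106 and 1131 CPM in bleomycin males and 901, 995, 1462 and 1272 CPM in bleomycin females, against 1032, 1057, 973 and 1015 CPM in saline males and 1160.5, 1107, 1042 and 1075 CPM in saline females. The male groups did not overlap, bleomycin females had the lowest and the highest of the 16 values, and no change was called, at 0.12 ± 0.11 in males and 0.079 ± 0.11 in females on the log2 scale.

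Per gene length, Atp6v0d2 was the most abundant of the 16 pump genes in every group, with 403 ± 9.44 FPKM in bleomycin males and 419 ± 89.6 FPKM in bleomycin females, against 374 ± 13.5 FPKM in saline males and 402 ± 19.3 FPKM in saline females. Its FPKM was 2.46 to 3.13 times that of Atp6v0d1 and 32.1 to 46.2 times that of Atp6v1h, the lowest, over the 4 groups. The share of d2 in the summed FPKM of d1 and d2 was 71.1 ± 2.33% in bleomycin males and 73.9 ± 0.595% in saline males, a difference of -2.76 points (two-sided exact permutation test, p = 0.0571; adjusted over 4 tests, 0.114). In bleomycin females it was 72.1 ± 1.24%, and in saline females 75.8 ± 0.355%, a difference of -3.66 points (two-sided exact permutation test, p = 0.0286, the smallest that 4 against 4 libraries allow; adjusted p = 0.114). The female shares did not overlap, yet neither difference passed after adjustment.

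**Figure D2:**
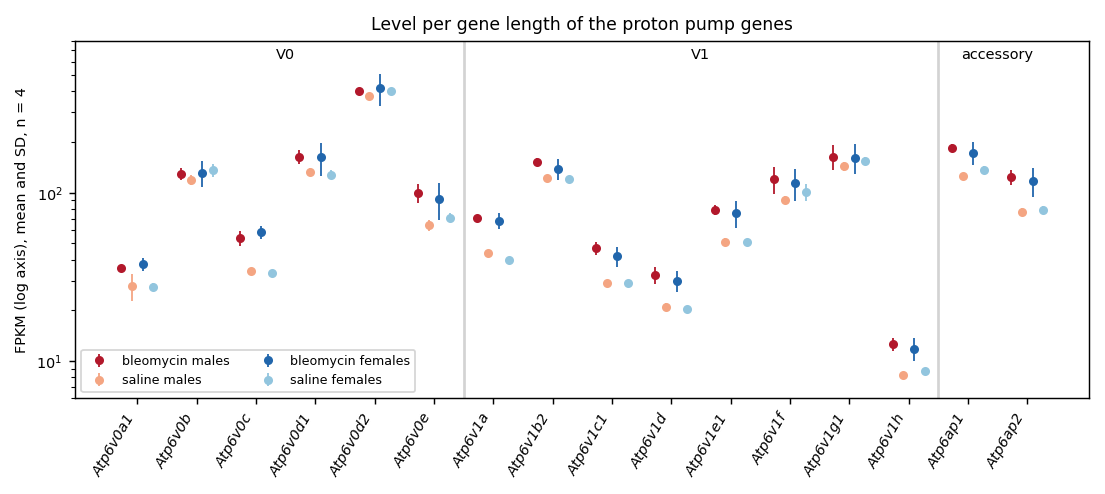
Mean FPKM with SD (n = 4 libraries) of the 16 pump genes on a log axis, by sector, for bleomycin males, saline males, bleomycin females and saline females. Atp6v0d2 stands highest and Atp6v1h lowest in all 4 groups, and the pairs separate clearly in Atp6v0c, Atp6v1a and Atp6ap2 but not in Atp6v0b, Atp6v0d2 or Atp6v1g1.

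In the V1 sector 7 of 8 genes rose in males and 5 of 8 in females, beside 31.5% and 26.7% of all genes. Atp6v1a, the catalytic A subunit that binds and splits ATP, had 411, 440.2, 422 and 448 CPM in bleomycin males and 355, 415, 464 and 447 CPM in bleomycin females, against 268, 259, 263 and 278 CPM in saline males and 236, 258, 235 and 232 CPM in saline females. All 8 bleomycin libraries were above all 8 saline libraries, and it rose by 0.69 ± 0.08 in males (edgeR adjusted p = 1.02e-06) and 0.81 ± 0.08 in females (edgeR adjusted p = 1.59e-07), on the log2 scale. Atp6v1g1, a subunit of the peripheral stalks, had 148, 225, 197 and 179.8 CPM in bleomycin males and 143, 176, 191 and 236 CPM in bleomycin females, against 175, 156, 167 and 157 CPM in saline males and 162, 179.8, 175 and 185 CPM in saline females. It was not called at 0.19 ± 0.13 in males and 0.089 ± 0.13 in females, with C33 and C49 below every saline library, and its averaged change of 0.14 was called without C49, at 0.20 (edgeR adjusted p = 0.0380).

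The other V1 genes lay between these. In the averaged comparison the stalk subunits Atp6v1e1, Atp6v1c1 and Atp6v1d rose by 0.62, 0.62 and 0.60 on the log2 scale, and Atp6v1h, which regulates the sector, by 0.54. Atp6v1b2, the nucleotide-binding B subunit, rose by 0.33 in males (edgeR adjusted p = 0.00598) and was not called in females at 0.21 (edgeR adjusted p = 0.0707). Atp6v1f, of the central stalk, rose by 0.41 in males (edgeR adjusted p = 0.0236) and was not called in females at 0.19 (edgeR adjusted p = 0.312), and its averaged change of 0.30 lost the call without C65 (edgeR adjusted p = 0.0591) or C69 (edgeR adjusted p = 0.0563). For neither gene was the difference between the sexes called.

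Both accessory genes rose. Atp6ap2, also known as the prorenin receptor, had 289.6, 366, 338 and 316 CPM in bleomycin males and 229.9, 297, 365 and 359.8 CPM in bleomycin females, against 199, 217, 193 and 199.6 CPM in saline males and 224, 210.2, 202 and 197 CPM in saline females. The groups did not overlap, and the log2 changes were 0.70 ± 0.12 in males and 0.59 ± 0.12 in females (edgeR adjusted p = 6.79e-05 and 4.36e-04). Atp6ap1, which takes part in assembling the pump, had 535, 605, 573 and 543 CPM in bleomycin males and 419, 504, 612 and 598 CPM in bleomycin females, against 375, 394, 373 and 392 CPM in saline males and 441, 413, 392 and 414 CPM in saline females. Only C49 lay within the saline range, and the log2 changes were 0.56 ± 0.098 in males and 0.36 ± 0.098 in females (edgeR adjusted p = 1.12e-04 and 0.00553).

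The membrane proteins moved both ways. Cd68, a heavily glycosylated protein of macrophage lysosomes, had 1184, 1240.4, 1224 and 1119 CPM in bleomycin males and 949, 1054, 1345 and 1371 CPM in bleomycin females, against 577, 816, 569 and 589.8 CPM in saline males and 664, 553, 520.1 and 519 CPM in saline females. Every bleomycin library was higher than every saline library, and Cd68 rose by 0.90 ± 0.13 in males (edgeR adjusted p = 1.73e-05) and 1.06 ± 0.13 in females (edgeR adjusted p = 2.85e-06), on the log2 scale. Cln3, a membrane protein mutated in juvenile neuronal ceroid lipofuscinosis in humans, had 96.5, 81.8, 84.5 and 82.7 CPM in bleomycin males and 98.2, 86.03, 90.3 and 85.7 CPM in bleomycin females, against 116, 115, 116 and 125 CPM in saline males and 97.03, 109.9, 118 and 113 CPM in saline females. It fell in both sexes, with log2 changes of -0.45 ± 0.075 in males (edgeR adjusted p = 6.95e-05) and -0.28 ± 0.075 in females (edgeR adjusted p = 0.00513), with C49 just above the lowest saline female, C74. The Cln3 locus overlaps the protein-coding gene Apobr, 9 others of the 42 genes overlap a protein-coding gene too (Atp6v0c, Atp6v1b2, Atp6v1e1, Atp6v1h, Lamp1, Npc1, Hexa, Glb1 and Grn), and whether the counting used strand is not given in the sources used here.

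Mcoln1, a calcium channel that acts upstream of Tfeb, also fell, with 95.9 ± 9.39 CPM in bleomycin males and 96.6 ± 9.33 CPM in bleomycin females, against 127 ± 8.99 CPM in saline males and 116 ± 4.16 CPM in saline females (SD, n = 4 each). Lamp1 and Lamp2, the abundant glycoproteins that line the lysosome, rose by 0.86 and 0.56 on the log2 scale in the averaged comparison, without overlap in either sex. Npc1, which exports cholesterol, rose by 0.41 in females (edgeR adjusted p = 1.48e-04) and was not called in males at 0.068 (edgeR adjusted p = 0.445). Scarb2, the receptor that carries glucocerebrosidase to the lysosome, was not called at 0.015 in the averaged comparison and was called down with library totals alone.

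Of the hydrolases, Lgmn changed most. Lgmn (chr12:102394084-102439813, minus strand), the asparaginyl endopeptidase legumain, had 851, 1265, 1214 and 1004 CPM in bleomycin males and 692, 922, 966 and 1145 CPM in bleomycin females, against 172, 221, 178 and 178 CPM in saline males and 197, 188, 180.2 and 182 CPM in saline females. The lowest bleomycin library was far above the highest saline library, and the log2 changes were 2.53 ± 0.15 in males (edgeR adjusted p = 1.40e-10) and 2.32 ± 0.15 in females (edgeR adjusted p = 4.09e-10). Per gene length it ranked 7th and 8th of the 42 genes in bleomycin males and females, with 462 ± 80.1 and 394 ± 76.1 FPKM, and 18th and 19th in saline males and females, with 80.5 ± 9.75 and 80.1 ± 3.46 FPKM. At the other end, Neu1, a sialidase, had 231, 202, 217 and 215 CPM in bleomycin males and 195, 213, 232 and 238 CPM in bleomycin females, against 166, 202, 183 and 156 CPM in saline males and 169, 171, 177 and 172 CPM in saline females. Neu1 rose by 0.29 ± 0.084 in males and 0.35 ± 0.084 in females on the log2 scale (edgeR adjusted p = 0.00697 and 0.00248), with overlap in males, where C71 was as high as the lowest bleomycin library, and none in females.

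The other 11 hydrolases rose in both sexes. Gla, the alpha-galactosidase lacking in Fabry disease, had 138 ± 11.1 CPM in bleomycin males and 133 ± 22.6 CPM in bleomycin females, against 57.6 ± 0.546 CPM in saline males and 52.3 ± 1.99 CPM in saline females, a log2 change of 1.30 in the averaged comparison. Naglu, which degrades heparan sulfate, rose by 0.94, and Man2b1, an alpha-mannosidase, by 0.78 on the same scale. Gaa, the glucosidase that degrades glycogen, and Lipa, the acid lipase of cholesteryl esters and triglycerides, rose by 0.76 and 0.74. The rises were 0.72 for Glb1 (beta-galactosidase), 0.71 for Tpp1 (a tripeptidyl peptidase), 0.70 for Smpd1 (acid sphingomyelinase) and 0.63 for Hexa (the alpha subunit of hexosaminidase). Gusb (beta-glucuronidase) and Asah1 (acid ceramidase) rose least of these 11, by 0.38 and 0.37.

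The 3 non-enzyme lumenal proteins rose in every comparison with saline. Psap (chr10:60277627-60302597, plus strand), the precursor of the saposins that help enzymes reach sphingolipids, had 14066, 17844, 17184 and 15846 CPM in bleomycin males and 12365, 14116, 15369 and 17299 CPM in bleomycin females, against 5112, 5811, 4877 and 5018 CPM in saline males and 4906, 4597, 4459 and 4509 CPM in saline females. It was the most abundant of the 42 genes per length in every group, at 5856 ± 585 FPKM in bleomycin males and 1892 ± 151 FPKM in saline males, and rose by 1.64 ± 0.11 in males and 1.68 ± 0.11 in females on the log2 scale (edgeR adjusted p = 1.05e-09 and 8.50e-10). Grn, progranulin, a secreted and lysosomal growth-factor-like protein, had 1547, 1797, 1674 and 1559.8 CPM in bleomycin males and 1295, 1473, 1831 and 2094 CPM in bleomycin females, against 869, 959, 825 and 904 CPM in saline males and 886, 865, 744 and 742 CPM in saline females. Neither gene overlapped between bleomycin and saline, and Grn rose by 0.89 ± 0.12 in males and 1.05 ± 0.12 in females on the log2 scale (edgeR adjusted p = 8.36e-06 and 1.30e-06). Npc2, the lumenal partner of Npc1 that binds cholesterol, had 951 ± 111 CPM in bleomycin males and 946 ± 151 CPM in bleomycin females, against 428 ± 23.9 CPM in saline males and 456 ± 20.6 CPM in saline females.

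**Figure D3:**
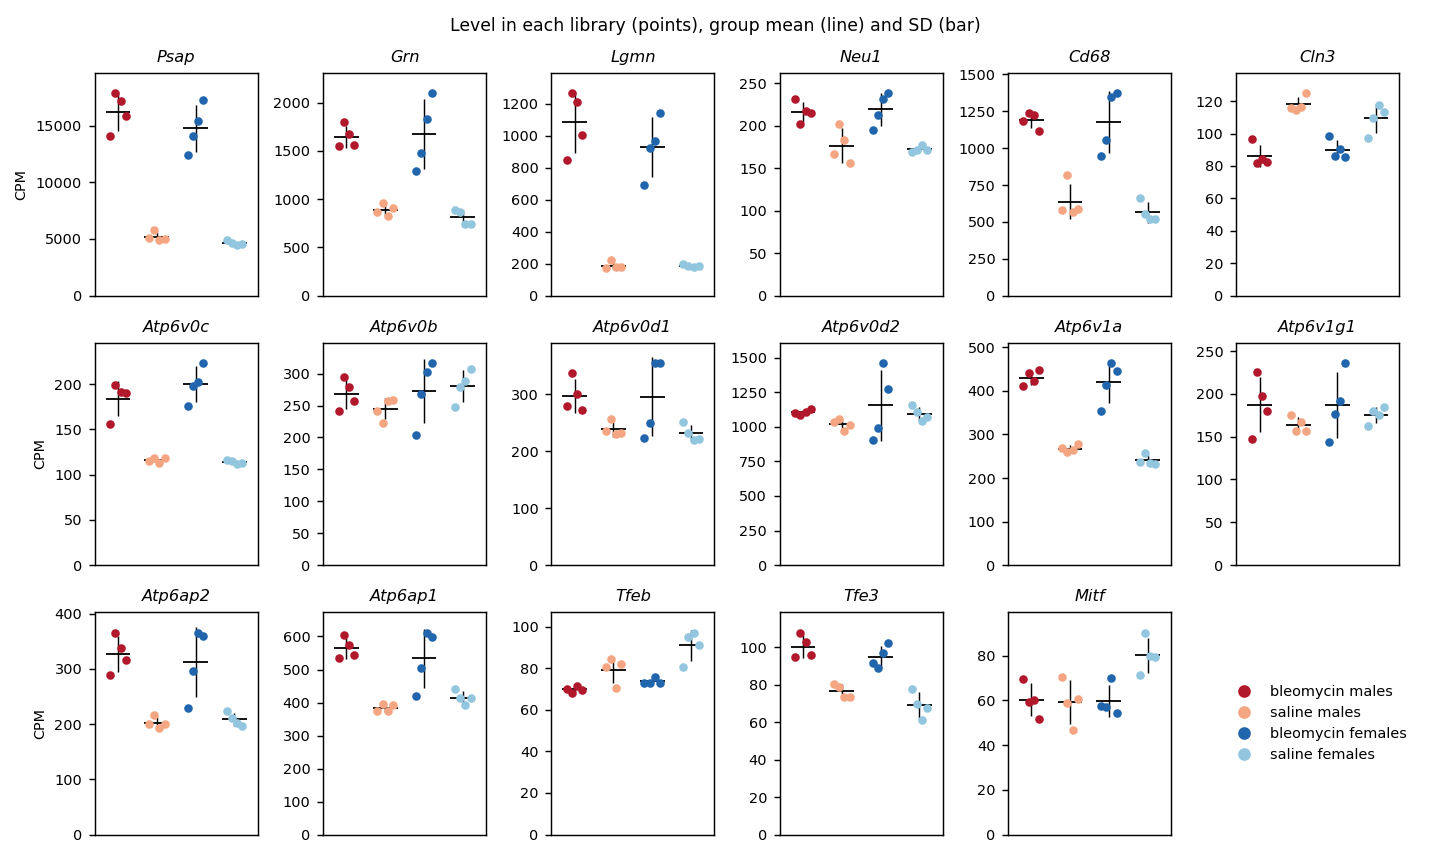
CPM of 17 genes in each library (points) with group mean (line) and SD (bar), for bleomycin males, saline males, bleomycin females and saline females; each vertical axis starts at 0. Lgmn and Psap separate most widely, Atp6v0d2, Atp6v0b and Atp6v1g1 overlap, and Mitf stands apart only in saline females.

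The bleomycin females varied most. The median coefficient of variation over the 42 genes was 14.0% in bleomycin females and 6.58% in bleomycin males, against 5.20% in saline males and 4.87% in saline females. C49 was the lowest bleomycin female in 36 of 42 genes, while C69 was the highest in 21 and C68 in 17. Among bleomycin males C33 was the lowest in 21 genes and C65 the highest in 23. Neither the variation nor these counts were set against all genes, so they do not show a trait particular to the lysosome genes. In C49 the sums of resident alveolar macrophage markers (12580 CPM) and of monocyte-derived macrophage markers (4460 CPM) were the lowest of the bleomycin females. Its sum of T cell markers (481.7 CPM) was their highest. Without C49, 34 genes rose and 4 fell in females. With it, 32 rose and 4 fell, beside 26.7% and 17.2% of all genes.

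**Figure D4:**
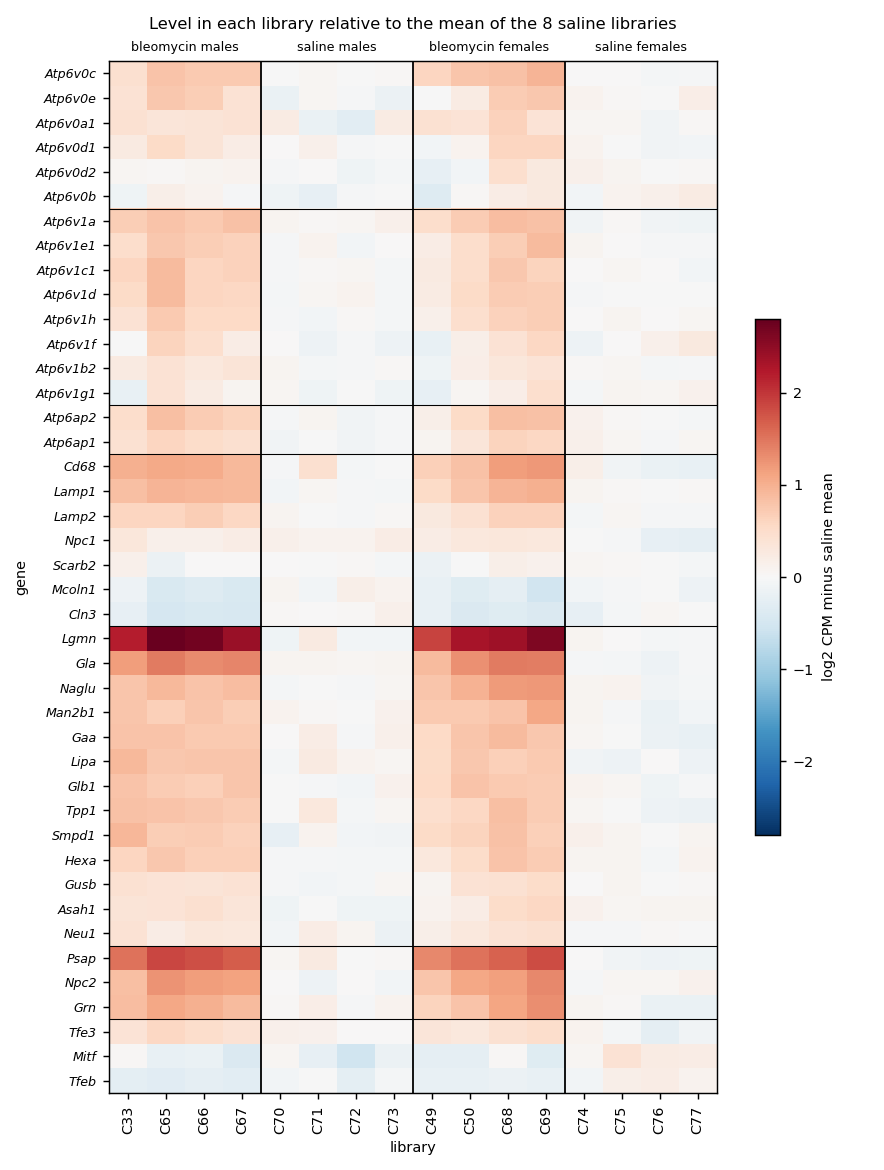
Log2 CPM of each of the 42 genes (rows, by class) in each of the 16 libraries (columns), minus the mean of the 8 saline libraries; red is higher and blue lower. The bleomycin columns are red in the hydrolase and lumenal rows, with the weakest colour in C49, and Mcoln1, Cln3 and Tfeb are blue.

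In the main edgeR fit, none of the 42 genes was called between the sexes or for a response that depended on sex. This does not show that the sexes were equal. Between bleomycin males and bleomycin females, edgeR called none of the 42 genes, where 0.0328% of all genes were higher in males and 0.0262% lower. Only 1 gene, Naglu, had an unadjusted p below 0.05, which chance alone gives in about 1 of 20 genes. Its log2 difference, males minus females, was -0.21 ± 0.086 (edgeR adjusted p = 0.995), and DESeq2 and limma voom called none. For the interaction of bleomycin with sex edgeR called none either, where 0% of all genes had the larger change in males and 0.00655% the smaller, and DESeq2 and limma voom called none. Of the 42, 2 had an unadjusted p below 0.05 in edgeR, Npc1 and Mitf. The difference of the log2 changes, males minus females, was -0.34 ± 0.10 for Npc1 (edgeR adjusted p = 0.548) and 0.45 ± 0.17 for Mitf (edgeR adjusted p = 0.596).

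Between saline males and saline females the answer depended on the tool. EdgeR called none of the 42, where 0.144% of all genes were higher and 0.125% lower in males. Of the 42, 4 had an unadjusted p below 0.05, which chance alone gives in about 1 of 20 genes. Mitf had a log2 difference of -0.44 ± 0.12 (edgeR adjusted p = 0.165) and Npc1 of 0.26 ± 0.074 (edgeR adjusted p = 0.181), and the male and female libraries of both genes did not overlap. DESeq2 called Npc1 higher and Mitf lower in males, and limma voom called neither. A fit of the 2 saline groups alone called these and Asah1, which was lower in males. The authors' deposited table of this comparison also lists these 3 genes as significant, with log2 changes of 0.249 (Npc1), -0.190 (Asah1) and -0.452 (Mitf) and adjusted p of 0.00456, 0.00117 and 0.00164. The other 2 genes with an unadjusted p below 0.05 were Tfeb, at -0.20, and Lipa, at 0.19.

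The rest of the lysosomal machinery, taken from lists of related genes, moved unevenly in the averaged comparison, in which 34.7% of all genes rose and 28.8% fell. Of 26 other genes, most of them of hydrolases, 17 rose and 3 fell, with a median log2 change of 0.36. Gm2a, an activator protein, and Hgsnat, an acetyltransferase, are among the 26. The largest change was in Sgsh, a sulfatase of heparan sulfate, at 3.82. Sgsh had 16.3 ± 1.16 CPM in bleomycin males and 1.13 ± 0.180 CPM in saline males (SD, n = 4). The largest falls among these 26 genes were Pla2g15, a lysosomal phospholipase, at -0.47 and Ppt1, a palmitoyl thioesterase, at -0.41.

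Of 15 other membrane proteins 10 rose and 1 fell. Slc11a1, a metal transporter of phagosomes, rose by 4.29 on the log2 scale and the tetraspanin Cd63 by 3.11, while the channel Mcoln3 fell, with a change of -0.55. Of 9 other pump genes only 3 had enough counts to test. Tcirg1, the a3 subunit, rose by 0.33, Atp6v1g2, a form of the G subunit known from neurons, fell, with a change of -1.14, and Atp6v0a2 was not called. By sex, Tcirg1 was called in females, at 0.47 (edgeR adjusted p = 0.00179), and not in males, at 0.20 (edgeR adjusted p = 0.125). The share of Tcirg1 in the summed FPKM of the a subunits was 68.3 ± 1.21% in bleomycin males and 69.2 ± 5.43% in saline males (exact permutation test, p = 0.714), and 67.5 ± 3.79% in bleomycin females and 66.01 ± 3.003% in saline females (exact permutation test, p = 0.514).

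Of 12 genes listed for marking, sorting or processing hydrolases, with the sialomucin Cd164 among them, 3 rose and 5 fell. Of all genes 34.7% rose and 28.8% fell. Igf2r, the cation-independent mannose 6-phosphate receptor, had the largest change, at 4.82, with 83.7 ± 14.3 CPM in bleomycin males and 2.74 ± 0.508 CPM in saline males. Gga2, an adaptor, rose by 0.65, while the sialomucin Cd164 and the receptor Sort1 fell, with changes of -0.80 and -0.50. Of 17 genes of mTORC1 and TFE signalling 8 rose and 4 fell, beside the same shares of all genes. Rragd, a Rag GTPase through which mTORC1 is held at the lysosome, rose by 4.43, with 18.2 ± 4.12 CPM in bleomycin males and 0.837 ± 0.351 CPM in saline males, and Fnip2, a partner of folliculin, by 1.31. Zkscan3, a repressor of lysosomal and autophagy genes in human cells, and Tfec, the fourth member of the Mitf family, fell, with changes of -0.84 and -0.46. By sex, Tfec was called in males, at -0.61 (edgeR adjusted p = 0.00739), and not in females, at -0.31 (edgeR adjusted p = 0.171).

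Of 16 genes of autophagy or lysosomal stress 8 rose and 4 fell, where 34.7% of all genes rose and 28.8% fell. Gpnmb, a glycoprotein induced in lysosomal stress, rose by 2.18, with 1910.0 ± 341 CPM in bleomycin males and 439 ± 74.04 CPM in saline males, and Gabarapl1, a protein of the autophagosome membrane, by 0.69. Map1lc3a and Atg9a fell, with changes of -0.50 and -0.39. By sex, Atg9a was called in males, at -0.56 (edgeR adjusted p = 0.00193), and not in females, at -0.21 (edgeR adjusted p = 0.218). The averaged rises and falls named from the related lists were all called by edgeR, with adjusted p of at most 0.00386.

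**Figure D5:**
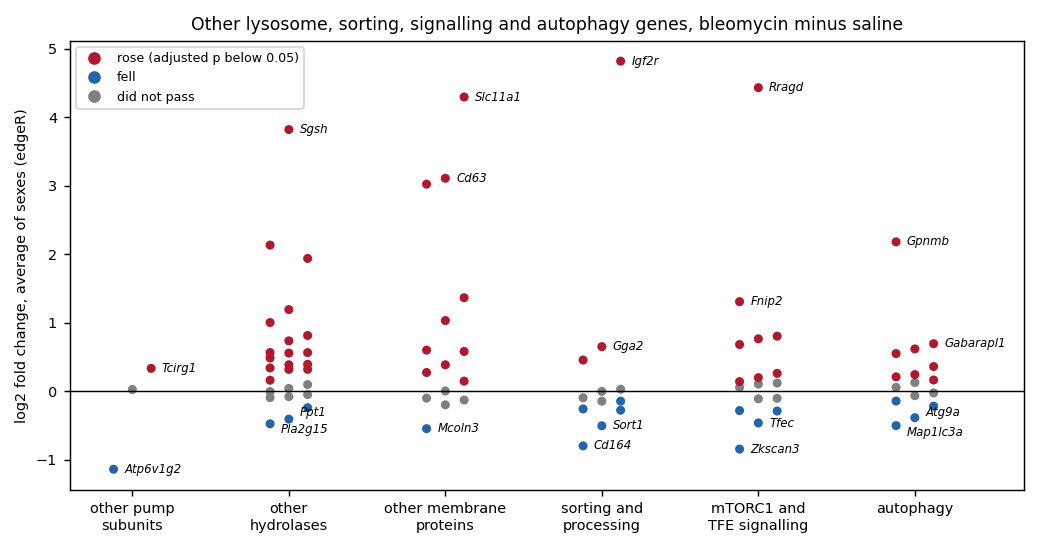
Averaged log2 fold change, bleomycin minus saline, of each tested gene of 6 related lists (points), coloured by whether it rose, fell or did not pass at an adjusted p below 0.05; up to 2 rises and 2 falls of each list, among the largest, are named, with Tcirg1 and Tfec. Igf2r, Rragd and Slc11a1 stand above 4, where the largest change among the 42 genes is 2.42 for Lgmn.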

How the data were processed

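RNA sequencing counts of lavage cells were used from 16 libraries, 4 in each of 4 groups taken from the sample labels. The 42 genes, the related lists and the markers were chosen with earlier results of these data known. Per the submitters' processing notes, the tools include HISAT2 2.0.5, fastp 0.12.2, DESeq2 and featureCounts 1.5.0-p3, and the builds mm9 and mm10 are named without a role. The authors deposited raw counts per gene and FPKM values, which are the counts over the length of the gene and over 1 factor per library, whose definition is not given in the sources used here. The log2 fold changes and p-values of the deposited comparison tables are the authors' own, and only genes with an unadjusted p below 0.05 are listed there.

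From the counts, genes with enough reads were kept by edgeR's filterByExpr (minimum count 10), which left 15257 of 54532. All 16 libraries entered 1 fit with a term for each group (edgeR 4.0.16, quasi-likelihood F test, TMM factors, R 4.3.3), with Benjamini-Hochberg adjustment across the tested genes. The scripts were tested on simulated data. The SE is approximate (change over the root of F). CPM are scaled to library total and TMM factor, and marker sums add the CPM of a list. Subunit shares were compared by exact permutation of 4 against 4 libraries (70 arrangements) and adjusted over 4 tests. Alternatives were DESeq2 size factors, library totals alone, no filter, a filter of 1 CPM in 4 libraries, DESeq2 1.42.0, limma voom (limma 3.58.1), the groups compared alone, and leaving out each library. Values in every library are given for the 3 regulators, both d subunits and the largest and smallest averaged change of each class, and the related lists are represented by their largest rises and falls, with Tcirg1 and Tfec; 1 of these genes is not reported here. Promoter sequences are RefSeq's (GRCm38.p6). Replicates of a group differed by more than sampling noise, the closest pair at a chi-square of 4.497 per gene. Precision rests on 16385784 to 24567609 counts per library.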

Additional observations from a re-analysis of the deposited data

Results flagged for a closer look

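In each group of 4 libraries, the highest or the lowest library was marked where its gap to the nearest of the others took up most of the group's range. Of 168 groups (42 genes in 4 groups), 10 were marked, and chance marks about 1 in 20. Of these genes, 3 stood high in 1 saline male, C71: Cd68 at 815.8 CPM against 569.3 to 589.8 CPM in the other saline males, Lgmn at 221.5 CPM against 172.2 to 178.2 CPM, and Asah1 at 440.3 CPM against 412.4 to 412.7 CPM. In the same group Cln3 was at 124.8 CPM in C73, against 114.7 to 116.3 CPM. Among saline females, C75 was high in Atp6v1a, at 258.5 CPM against 232.2 to 235.8 CPM, and in Lamp2, at 469.2 CPM against 435.6 to 437 CPM, and C74 was low in Atp6v1d, at 93.65 CPM against 95.14 to 95.33 CPM. Among bleomycin libraries, Atp6v1d was at 176.5 CPM in the male C65 against 139.5 to 144.5 CPM, Man2b1 at 1425 CPM in the female C69 against 1116 to 1159 CPM, and Tfeb at 75.59 CPM in the female C68 against 72.94 to 73.02 CPM.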

How the results depend on the processing

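The counts of genes called with bleomycin moved by at most 1.5 times under every alternative, with 26 to 35 rises over the 3 comparisons. Leaving out each library gave 33 to 35 rises in the averaged comparison, 31 to 33 in males and 29 to 34 in females. Library totals alone moved the median log2 change of the 42 genes to 0.4129 in males, 0.3302 in females and 0.3668 in the average, and turned the sign of the averaged change of Atp6v0b (-0.1753), Atp6v0d2 (-0.1202), Atp6v1g1 (-0.07966) and Scarb2 (-0.1986); by construction this scaling leaves out the composition factors. Scarb2 also turned with no filter (-0.001683) and the stricter filter (-0.007663), and ran from -0.01321 to 0.04602 over the fits without 1 library, as Atp6v0b did from -0.008248 to 0.1036. Calls between saline males and females changed with the setting: no filter called 1 gene lower in males, DESeq2 called 1 higher and 1 lower, and the fit of the 2 groups alone called 1 higher and 2 lower. The difference in the Atp6v0d2 share in males ran from -3.48 to -1.697 points over the comparisons without 1 library, and was -3.48 (exact permutation p = 0.0286) without C67. That in the Tcirg1 share in males ran from -2.476 to 0.8024 points, turning sign without C71 (0.8024) and C72 (0.6767). The causes were not tested. Of the 42 averaged changes under 8 settings, 21 values in 10 genes differed in sign or call. No paired analysis was possible because no replicate code is shared between groups.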

Other observations

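The saline males did not form 1 level in Atp6v0a1 or in the share of Tcirg1 in the a subunits. Atp6v0a2, another a subunit, was at 72.7 to 73.2 CPM in all 4 saline males. Atp6v0a1 was at 159.8 and 148.7 CPM in C71 and C72 and at 212.1 and 212.8 CPM in C70 and C73, while the share of Tcirg1 in the a subunits was 74.03 and 73.65% in C71 and C72 and 64.2 and 64.7% in C70 and C73. The other 12 libraries had Tcirg1 shares of 62.6 to 70.6%.

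Slc11a1, the phagosomal metal transporter, was higher in saline males than in saline females, at 8.83, 21.6, 8.91 and 10.7 CPM in saline males against 3.38, 2.69, 2.94 and 1.70 CPM in saline females, a log2 difference of 2.21 (edgeR adjusted p = 0.00163). The highest value was that of C71, which was also high in Cd68 and Lgmn, and the groups did not overlap.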
